A study of Mus musculus with 12 samples.

Results

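The genes described are 10 regulators of apoptosis of the BCL2 family, namely Bcl2, Bcl2l1, Mcl1, Bak1, Bcl2l11, Bid, Bad, Bik, Bmf and Hrk. They were chosen by symbol, because the balance of ceramide and sphingosine 1-phosphate has been linked to cell death. All 10 symbols were found among the 22753 genes of the count table, each once, and all 10 had enough reads to be tested among 15179 genes.

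Proteins of the BCL2 family control whether the outer membrane of the mitochondrion is opened, a step that releases cytochrome c and starts the caspases. Anti-apoptotic members hold back the effectors BAK and BAX, which form the pores, and the BH3-only members carry stress signals by binding either side. Embryonic stem cells are known to be primed for apoptosis, and MCL1, which turns over quickly, is needed in the early embryo.

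RNA was sequenced from mouse embryonic stem cells of 2 clones, numbered 4 and 10, whose parent mice were Sphk1 floxed and Sphk2 null. These genes encode both sphingosine kinases, the enzymes that make sphingosine 1-phosphate. Every library came from cells given 6 uM 4-hydroxytamoxifen for 48 hours and sorted on the fluorescence of Cre-GFP, at labelled passages from 11 to 20. The 4 groups were clone 4 GFP-negative (Sphk1fl/fl Sphk2-/-), clone 4 GFP-positive (Sphk1-/- Sphk2-/-), clone 10 GFP-negative (Sphk1fl/fl Sphk2-/-) and clone 10 GFP-positive (Sphk1-/- Sphk2-/-), with 3 libraries each. Sphk2-/- and the drug were thus common to all groups, so no group shows cells with both kinases intact or cells without the drug. The promoter that drives Cre is not named in the labels, and each line is 1 clone, so a difference between the lines is one between 2 clones. Nothing in the labels says that the 3 libraries of a group were separate cultures, so a p-value speaks to the spread among libraries only.

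Libraries held 12968916 to 34258395 counts. Clone 10 GFP-negative replicate 1 was the shallowest, had the lowest share of counts from mitochondrial genes (0.143%, against up to 2.32% elsewhere) and the lowest scaling factor (0.83, against up to 1.08). Within each of the 6 pairs, which share clone and replicate number, GFP-positive cells had the higher mitochondrial share, whose part in the results was not tested. Labelled passages, GFP-negative then GFP-positive, were 11 and 11, 13 and 14, and 15 and 16 in clone 4 replicates 1 to 3. In clone 10 they were 11 and 12, 17 and 18, and 19 and 20. Labelled passage thus rose with the gate in every pair but clone 4 replicate 1, and replicates 2 and 3 were later in clone 10. Sphk1 was at 0.729 to 4.17 and Sphk2 at 1.16 to 8.95 normalized CPM (read counts scaled to the effective size of the library). In replicates 1 to 3 of clone 4, Sphk1 was at 1.9, 2.8 and 1.7 in GFP-negative and 1.9, 1.0 and 0.73 in GFP-positive cells. In clone 10 it was at 0.84, 1.5 and 4.2 and at 0.87, 1.2 and 2.9. These values rest on 9 to 90 reads per library. Because such totals may include exons that were not deleted, they do not check the labels. All 14 markers of embryonic stem cells were detected in every library, with Pou5f1 at 889 to 3545 normalized CPM. Libraries with the same clone and number varied together, so each gate comparison was fitted across all libraries and also within the 6 pairs. RNA here comes from many cells at once, so fewer cells of a type and less RNA per cell cannot be told apart.

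The anti-apoptotic members lie at chr3:95658721-95663176 (Mcl1), chr2:152780668-152831728 (Bcl2l1) and chr1:106538178-106714274 (Bcl2) in mm10, as the deposited tables give them. Levels of different genes were compared as normalized CPM per kilobase of exon. On that scale Mcl1 was the highest of the 10 members, with a median of 225 over the 12 libraries (192 to 334), and Bcl2, the founding member of the family, was the lowest at 0.0857 (0.0203 to 0.177). Because these genes mark the ends of the range, the 250 bases before the RefSeq start of each (build GRCm38.p6) are shown in the direction of transcription. GC boxes, the letters GGGCGG on either strand, are in capitals, and the windows are chr3:95658471-95658720 on the plus strand for Mcl1 and chr1:106714291-106714540 on the minus strand for Bcl2.
Mcl1: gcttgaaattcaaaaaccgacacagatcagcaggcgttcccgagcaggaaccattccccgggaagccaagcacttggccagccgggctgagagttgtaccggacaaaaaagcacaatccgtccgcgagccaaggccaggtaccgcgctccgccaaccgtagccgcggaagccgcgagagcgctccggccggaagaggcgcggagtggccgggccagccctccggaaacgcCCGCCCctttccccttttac
Bcl2: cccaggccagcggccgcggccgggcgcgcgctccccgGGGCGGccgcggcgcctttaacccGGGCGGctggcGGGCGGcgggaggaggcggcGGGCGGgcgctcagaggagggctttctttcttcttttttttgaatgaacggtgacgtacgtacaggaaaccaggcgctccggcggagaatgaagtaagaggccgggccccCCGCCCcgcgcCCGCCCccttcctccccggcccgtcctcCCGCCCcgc

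The Mcl1 window holds 1 GC box and has a GC content of 64.4%, and the Bcl2 window holds 7 and has 74.8%, beside a median of 52.4% over 32851 RefSeq windows of the same length. A GC box was found in 32.7% of those windows. Neither window holds a TATA box (TATAAA, in 12.4% of all windows), a CCAAT box (CCAAT, in 33.9%), an E-box (CACGTG, in 6.02%), a cAMP response element (TGACGTCA, in 1.55%) or an octamer (ATTTGCAT, in 1.60%), searched on both strands. The gene with more GC boxes was the one with the lower level. These genes were picked as the ends of the range, and a link between GC boxes and level was not tested. Promoter entries matched 9 of the 10 members.

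Between Mcl1 and Bcl2 the order of the median level per kilobase was Bak1 (39.6), Bcl2l1 (18.8), Bid (15.7), Bad (8.29), Bcl2l11 (4.74), Bmf (4.58), Bik (1.66) and Hrk (1.27). Each gene stood above the next in 12 of 12 libraries, with 2 exceptions. Bcl2l11 was above Bmf in only 6 libraries and Bik above Hrk in 7, so these neighbours did not differ beyond their spread. Mcl1 made up 87.0% to 94.4% of the summed level per kilobase of the 3 anti-apoptotic members. Bcl2 rested on 2 to 44 reads per library, and its changes were measured with little precision.

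**Figure D1:**
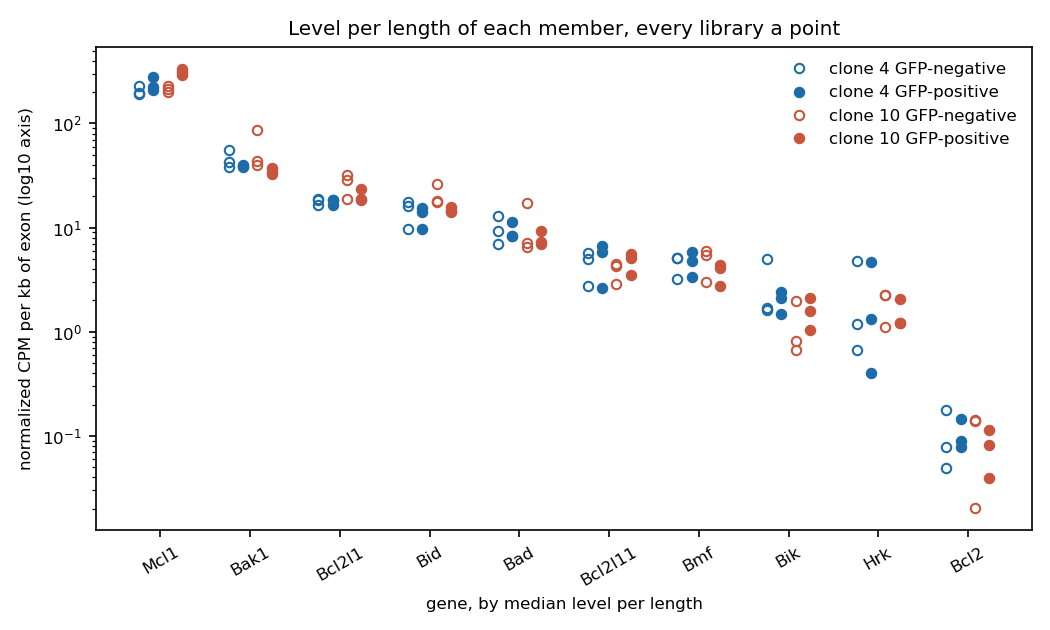
Level of each BCL2 family member in normalized CPM per kilobase of exon (vertical log10 axis), 1 point per library, open for GFP-negative and filled for GFP-positive cells, blue for clone 4 and red for clone 10. Mcl1 lies above and Bcl2 below every other member in all 12 libraries.

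How much a member varied between pairs and between gates differed widely within the family. Taking the mean of each pair, the SD over the 6 pairs was 1.04 on the log2 scale for Hrk, 0.77 for Bcl2 and 0.70 for Bik, and 0.17 for Mcl1. The median of that SD over all genes tested was 0.45 and its 90th percentile 0.96. Hrk, which encodes a BH3-only protein best known from neurons, went from 2.29 to 27.2 normalized CPM over the libraries, whereas Mcl1 spanned a ratio of only 1.74 and Bcl2l1 one of 1.97. The mean absolute difference within pairs was 0.37 for Mcl1 and 0.34 for Hrk, beside a median of 0.32 over all genes. Mcl1 thus varied less than most genes from pair to pair while differing between gates about as much as Hrk. Mcl1 had 7938 to 31575 reads per library and Hrk 51 to 584. By mean log2 level they were at percentiles 99.5 and 34.7 of the genes tested. These spreads were not adjusted for level, and its part in them was not tested.

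**Figure D2:**
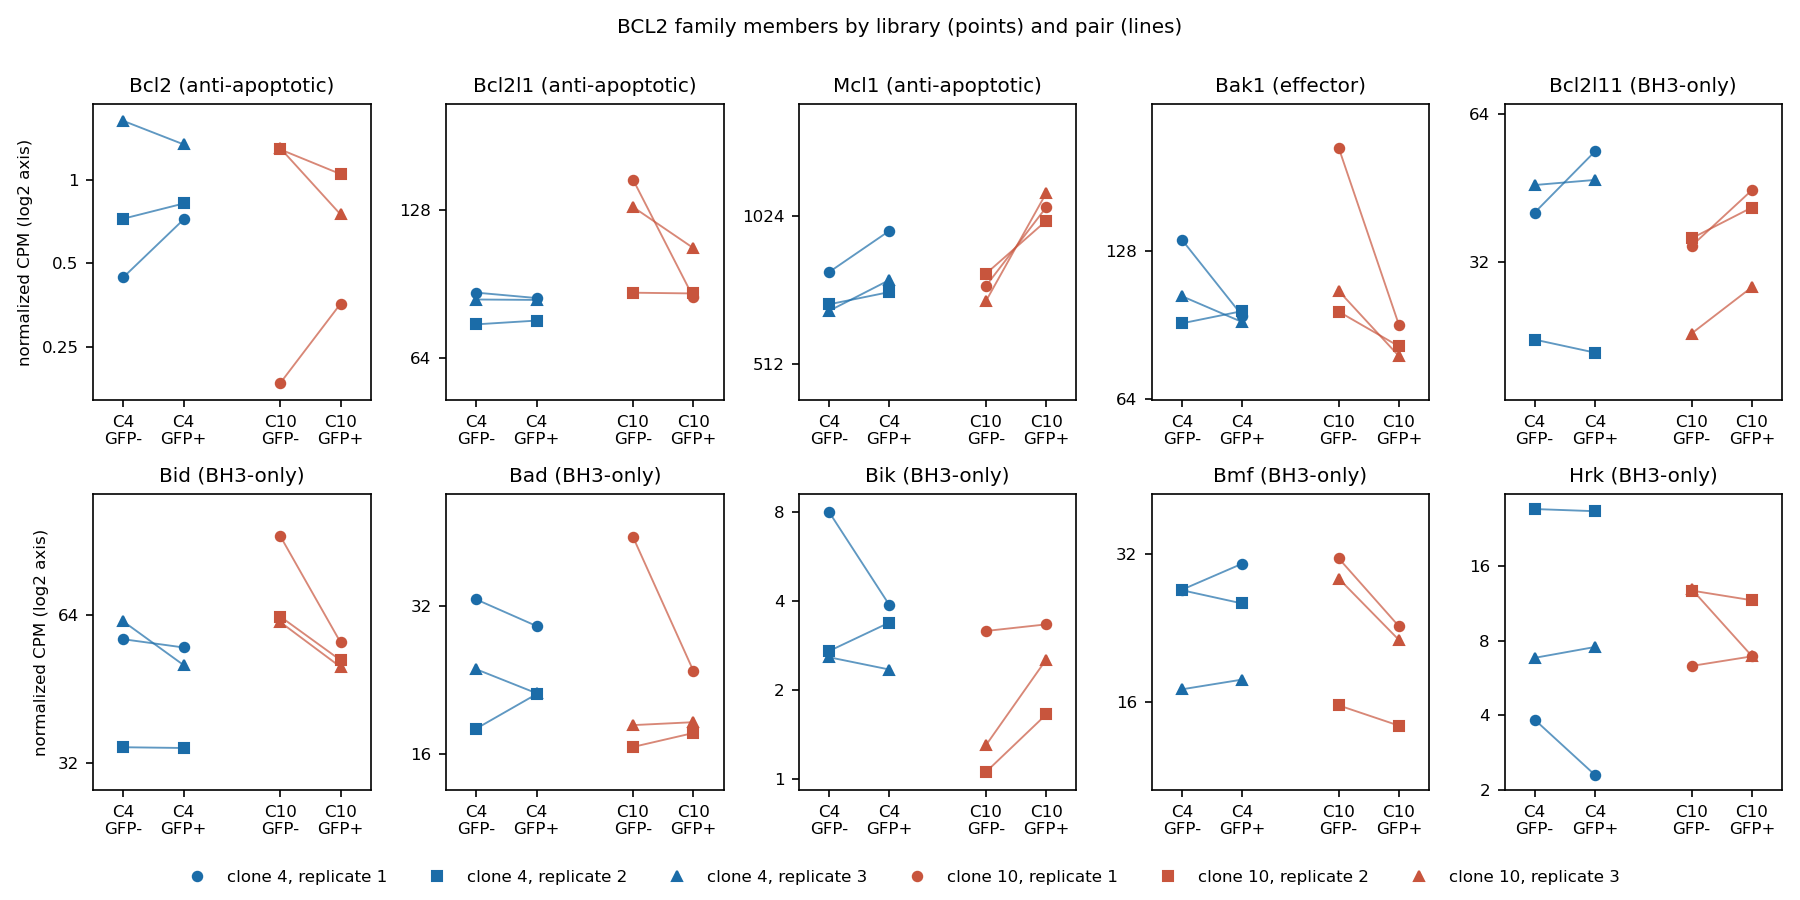
Normalized CPM of each member (vertical log2 axis) in the GFP-negative and GFP-positive libraries of clone 4 (C4, blue) and clone 10 (C10, red), with a line joining the 2 libraries of a pair. All 6 lines rise for Mcl1, none rises for Bid, and Hrk differs more between pairs than between gates.

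Mcl1 was the one member called in a gate comparison by edgeR's quasi-likelihood test. In clone 10 it stood at 738, 781 and 687 normalized CPM in GFP-negative replicates 1 to 3 and at 1066, 1001 and 1140 in GFP-positive ones. The lowest GFP-positive library was above the highest GFP-negative library, a separation seen upward in 9.38% of all genes tested in this clone. In clone 4 the values were 787, 677 and 657 in GFP-negative and 955, 717 and 759 in GFP-positive libraries, and there the groups overlapped. No member was free of overlap in clone 4, where 1.86% of all genes separated upward and 1.89% downward. The GFP-positive library was higher in 6 of 6 pairs, as it was for 8.71% of all genes.

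Within pairs Mcl1 rose in clone 10 by a log2 change of 0.54 (SE 0.13, 95% confidence interval 0.26 to 0.82, 1.45-fold, edgeR adjusted p = 0.049). It was 1 of 10 members called there, against 4.22% of all genes (3.49% in the upward direction), and had the 633rd smallest p of the 641 genes called. The call was lost without clone 4 replicates 1, 2 or 3 (edgeR adjusted p = 0.0652, 0.091 and 0.129) and without clone 10 replicates 2 or 3 (0.0953 and 0.241). It was also lost with DESeq2-style size factors (0.0548) and when only the clone 10 libraries were fitted (0.214), while the change itself stayed at 0.45 to 0.66 over all fits within pairs. Across all libraries the change was also 0.54 but with an SE of 0.20 and an edgeR adjusted p of 0.515.

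In clone 4 the change of Mcl1 within pairs was 0.19 (SE 0.12, interval -0.09 to 0.47, edgeR adjusted p = 0.708). Over both clones it was 0.37 (SE 0.09, edgeR adjusted p = 0.0624), short of the threshold. The change in clone 10 minus that in clone 4 was 0.35, with an interval of -0.05 to 0.75 and an edgeR adjusted p of 0.658, so a difference between the clones was not shown. No member passed that test in either fit, nor did any of all genes (0%), and 0 members had an unadjusted p under 0.05, beside 0.922% of all genes across all libraries and 7.69% within pairs. In the authors' deposited table for clone 10, Mcl1 had a log2 fold change of 0.48 with an adjusted p of 0.208.

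Markers of other cell states moved with the gate beside Mcl1. Two-cell-like genes mark a rare state of embryonic stem cells resembling the embryo after its first division. Within pairs, edgeR called all 14 of them higher in clone 10 and 5 of 14 in clone 4, beside 4.22% and 0.119% of all genes called. Across all libraries all 14 were above 0 in each clone, but 0 were called in either. Their summed level was 4.54 to 18.6 normalized CPM in clone 4 GFP-negative, 29.4 to 271 in clone 4 GFP-positive, 79.7 to 215 in clone 10 GFP-negative and 916 to 3967 in clone 10 GFP-positive libraries. The GFP-positive library had more in 6 of 6 pairs, and none of the 14 genes was at 0 in every library. The summed level of 20 fibroblast markers was 1154 to 2424, 918 to 1521, 864 to 3253 and 1182 to 2005 in the same order of groups. It was higher in GFP-positive cells in only 1 of 6 pairs, clone 10 replicate 1, and none of the markers was at 0 in every library. Within pairs, edgeR called 2 of the 19 tested fibroblast genes lower in clone 4, 0 in clone 10 and 7 lower over both clones. Of all genes, 0.119%, 4.22% and 3.36% were called in these comparisons. In clone 10 within pairs, Krt8 and Krt18 of the trophoblast list and Sox17 of the endoderm list were called higher, and Olig2 of the neural list lower. None of these 4 was called in clone 10 across all libraries, and of them Olig2 was also called lower over both clones within pairs. The summed level in GFP-positive cells was higher in 5 of 6 pairs for trophoblast, 4 for blood, 2 for endoderm, 1 for embryonic stem cell and 0 for neural markers. By group, in the same order, the sums were 80.9 to 254, 56.0 to 256, 54.3 to 152 and 72.5 to 278 for trophoblast and 51.3 to 151, 41.8 to 128, 117 to 187 and 70.0 to 167 for neural markers. For embryonic stem cell markers they were 7160 to 10900, 6940 to 8920, 10400 to 16000 and 8420 to 9800, so the gates did not overlap in clone 10. Across all libraries 2 of these 14 genes were above 0 in clone 10 (median log2 change -0.43), and none was called. Of these 5 lists only Hbb-bs, a blood marker, was at 0 in every library. The part of any of these lists in the change of Mcl1 was not tested.

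Bcl2l1 encodes BCL-XL, which protects many cell types from apoptosis. In clone 4 its level was nearly the same in all 6 libraries, at 87.1, 75.1 and 84.4 normalized CPM in GFP-negative and 84.9, 76.4 and 84.2 in GFP-positive cells. The clone 10 values were 148, 87.1 and 130 in GFP-negative and 85.2, 86.8 and 107 in GFP-positive cells. The GFP-negative replicates 1 and 3 stood apart upward, while replicate 2 lay within the range of the GFP-positive libraries. The log2 change within pairs was -0.36 (SE 0.15, edgeR adjusted p = 0.193) in clone 10 and -0.14 without replicate 1, and it was 0.00 (SE 0.15) in clone 4. Bcl2 differed in no consistent direction, with 3 pairs higher and 3 lower and a change over both clones of -0.09 (SE 0.28, edgeR adjusted p = 0.848).

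Bak1, at chr17:27019810-27029009, was the only effector among the members and the second most abundant per kilobase. In clone 10 it stood at 207, 96.3 and 106 normalized CPM in GFP-negative and at 90.4, 81.8 and 78.1 in GFP-positive cells. These groups did not overlap, which downward was so for 5.57% of all genes tested, and GFP-negative replicate 1 was far above the other libraries. In clone 4 the values were 135, 91.2 and 104 in GFP-negative and 94.5, 96.5 and 91.7 in GFP-positive cells, and the groups overlapped. The log2 change within pairs was -0.62 (SE 0.20, edgeR adjusted p = 0.108) in clone 10 and -0.20 (SE 0.19, edgeR adjusted p = 0.765) in clone 4. Without the pair of clone 10 replicate 1, whose GFP-negative library was the shallowest, the change in clone 10 was -0.34. In 5 of 6 pairs the GFP-positive library had the lower level.

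Of the BH3-only members, Bid encodes the link from death receptors and caspase 8 to the mitochondrion. It lies at chr6:120891930-120916853. Clone 10 had 92.6, 63.5 and 61.9 normalized CPM of Bid in GFP-negative and 56.3, 51.8 and 50.2 in GFP-positive cells, without overlap. Such a downward separation was seen in 5.57% of all genes tested in this clone. In clone 4 the values were 57.1, 34.5 and 62.1 in GFP-negative and 55.0, 34.3 and 50.6 in GFP-positive cells, and replicate 2 was low at both gates. The GFP-positive library was lower in 6 of 6 pairs, as it was for 7.29% of all genes. The log2 change within pairs was -0.44 (SE 0.14, edgeR adjusted p = 0.107) in clone 10, -0.30 there without replicate 1, and -0.12 (SE 0.14) in clone 4. Neither Bak1 nor Bid passed the threshold with edgeR, and with DESeq2 on the same pairs both did in clone 10 (DESeq2 adjusted p = 0.0374 and 0.0474). DESeq2 called 10.4% of all genes there, against 4.22% with edgeR.

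The strand setting of the counting is unknown, and reads from genes that overlap on opposite strands may not be separable. Of the exon bases of Bak1, 18.2% are shared with Ggnbp1, of those of Bid 17.7% with Bcl2l13, of those of Bad 20.5% with Gpr137, and of those of Bcl2 6.09% with an antisense transcript. Levels of these 4 members may therefore contain reads of the neighbour, or lack reads that were left uncounted as shared. Which of these holds was not tested.

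Bcl2l11 encodes BIM, a potent activator that binds every anti-apoptotic member, and lies at chr2:128126038-128162547. Its values in clone 10 were 34.5, 35.7 and 22.9 normalized CPM in GFP-negative and 44.8, 41.3 and 28.4 in GFP-positive cells. In clone 4 they were 40.3, 22.2 and 45.9 in GFP-negative and 53.7, 20.9 and 47.0 in GFP-positive cells. Bcl2l11 was the BH3-only gene most often higher in GFP-positive cells, in 5 of 6 pairs, but its groups overlapped in both clones. The log2 change within pairs was 0.30 (SE 0.14, edgeR adjusted p = 0.212) in clone 10 and 0.12 (SE 0.14, edgeR adjusted p = 0.792) in clone 4.

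Bmf, whose protein is tied to the cytoskeleton, lies at chr2:118528757-118549687. Clone 10 libraries held 31.3, 15.7 and 28.5 normalized CPM in GFP-negative and 22.8, 14.3 and 21.4 in GFP-positive cells, lower in each of the 3 pairs. In clone 4 the values were 27.0, 27.0 and 17.0 in GFP-negative and 30.5, 25.4 and 17.8 in GFP-positive cells, with no common direction. The log2 change within pairs was -0.34 (SE 0.14, edgeR adjusted p = 0.176) in clone 10 and 0.05 (SE 0.14) in clone 4.

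Bad, a BH3-only gene whose protein is kept inactive by phosphorylation downstream of growth factors, lies at chr19:6941861-6951898. It ranged from 16.5 to 44.1 normalized CPM, and the highest library was again clone 10 GFP-negative replicate 1. The log2 change within pairs in clone 10 was -0.26 (SE 0.21) with that pair and 0.06 without it, so its direction there rested on 1 pair.

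Bik and Hrk were the BH3-only genes with the lowest levels per kilobase, and lie at chr15:83526862-83544635 and chr5:118164648-118189478. Bik, whose protein sits at the endoplasmic reticulum, was at 3.16, 1.05 and 1.30 normalized CPM in clone 10 GFP-negative and 3.33, 1.65 and 2.53 in clone 10 GFP-positive cells, higher in each pair. In clone 4 it was 7.98, 2.70 and 2.58 in GFP-negative and 3.87, 3.37 and 2.34 in GFP-positive cells, where replicate 1 gave the widest gap, in the opposite direction. The log2 changes within pairs were 0.55 (SE 0.33) in clone 10 and -0.31 (SE 0.31) in clone 4, and their difference had an edgeR adjusted p of 0.667.

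Hrk was set apart by its replicates. It stood at 3.84, 27.2 and 6.81 normalized CPM in clone 4 GFP-negative and 2.29, 26.6 and 7.54 in clone 4 GFP-positive cells. The clone 10 values were 6.32, 12.7 and 12.9 in GFP-negative and 6.91, 11.6 and 6.93 in GFP-positive cells. Both libraries of clone 4 replicate 2 were high and both of clone 4 replicate 1 low, whatever the gate. The log2 change over both clones was -0.24 within pairs (SE 0.17, edgeR adjusted p = 0.372). Over the 12 libraries the log2 level of Hrk was inversely related to that of Bcl2l11 (Pearson's r = -0.787), and that of Bak1 followed that of Bad (r = 0.833). These are the extremes of 45 pairs of members, are given as a description, and share the libraries and their depths.

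**Figure D3:**
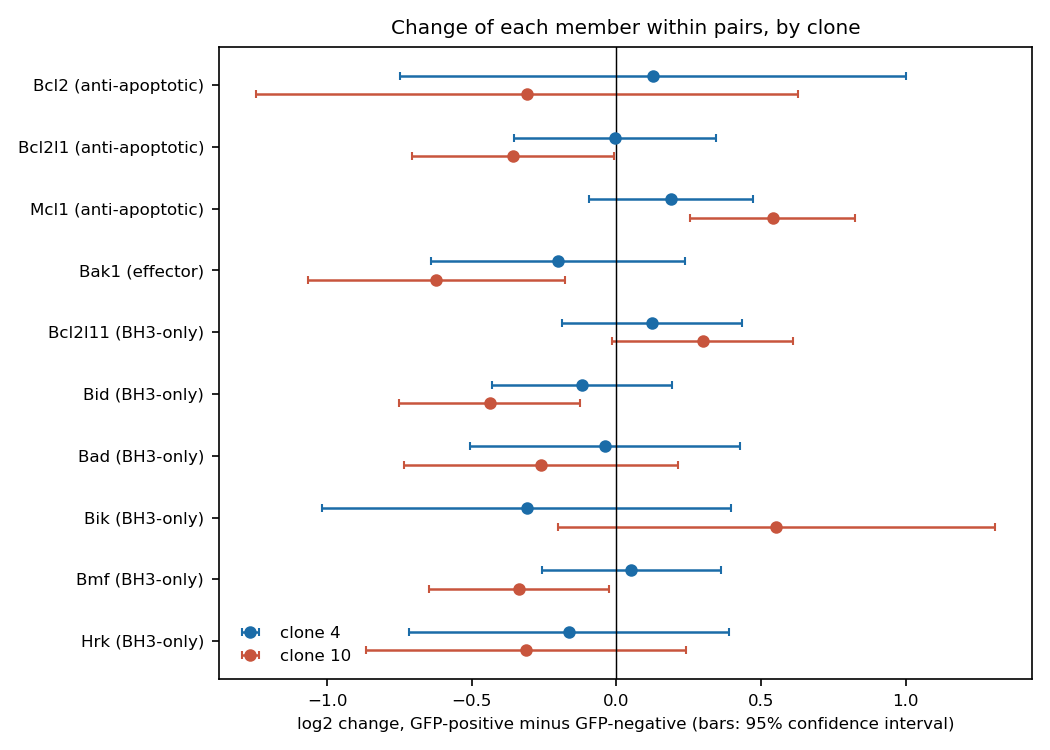
Log2 change of each member, GFP-positive minus GFP-negative, from the fit within pairs (horizontal axis), with points at the estimate and bars for the 95% confidence interval, blue for clone 4 and red for clone 10. Mcl1 in clone 10 (0.54) is the one value called after adjustment over all genes.

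Counted together, 0 of 10 members were called by edgeR in clone 4 within pairs (0.119% of all genes were), 1 in clone 10 and 0 for the mean of both clones (3.36% of all genes). At an unadjusted p under 0.05 the numbers were 0, 5 and 3 members, beside 7.42%, 25.2% and 26.3% of all genes. Those 5 in clone 10 were Mcl1, above 0, and Bak1, Bid, Bmf and Bcl2l1, below 0. DESeq2 on the same pairs called 0, 3 and 1 members (1.2%, 10.4% and 9.45% of all genes), and limma-voom 0, 1 and 1 (0.0395%, 5.15% and 4.18%). Across all libraries edgeR called 0 members in each gate comparison, beside 0% of all genes in either clone and 0.158% for the mean of both. There 0, 2 and 2 members had an unadjusted p under 0.05, beside 1.38%, 7.45% and 6.77% of all genes. Across all libraries DESeq2 also called 0 members in each comparison (0.217%, 1.9% and 1.88% of all genes), as did limma-voom (0%, 0.132% and 0.00659%). The median log2 change of the members within pairs was -0.02 in clone 4 and -0.31 in clone 10, beside 0.00 and -0.01 for all genes tested, and for the 6 BH3-only members it was -0.08 and -0.29.

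The clones were also compared with each other at each gate. In GFP-negative cells no member was called by edgeR across all libraries (0.0461% of all genes were), and 2 members had an unadjusted p under 0.05, beside 11.9% of all genes. These were Bik, lower in clone 10 by a log2 difference of -1.30 (SE 0.57, edgeR adjusted p = 0.401), and Bcl2l1, higher by 0.57 (SE 0.22, edgeR adjusted p = 0.336). In GFP-positive cells no member was called either (1.11% of all genes were), and 0 had an unadjusted p under 0.05, beside 14.3% of all genes. Mcl1 was higher there in clone 10 by 0.40 (edgeR adjusted p = 0.397). With the replicate number as a block, 0 members were called at either gate, beside 0.896% and 3.92% of all genes, while 3 and 1 had an unadjusted p under 0.05, beside 15.6% and 18.6%. DESeq2 called 0 members at either gate, beside 2.75% and 5.86% of all genes without the block and 5.6% and 9.76% with it. So did limma-voom, beside 0.0725% and 2.74% without and 0.586% and 4.7% with it.

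The ratio of Mcl1 to each of 4 other members was taken within a library, on the scale per kilobase, after their values had been seen. The ratio to Bak1 was 2.50 to 5.71 in clone 10 GFP-negative and 8.31 to 10.3 in clone 10 GFP-positive cells, with no overlap. In clone 4 it was 4.11 to 5.23 in GFP-negative and 5.23 to 7.12 in GFP-positive cells, and the gates were level in replicate 2. The ratio to Bid was 8.27 to 12.8 and 19.7 to 23.6 in clone 10, and 11.0 to 20.4 and 15.6 to 21.7 in clone 4. The ratio to Bcl2l1 was 6.69 to 12.0 and 14.3 to 16.8 in clone 10, and 10.4 to 12.1 and 12.1 to 15.1 in clone 4. The ratio to Bcl2l11 overlapped between the gates in both clones, at 50.3 to 70.5 and 55.9 to 94.2 in clone 10 and 33.6 to 71.5 and 37.9 to 80.5 in clone 4. It was higher in GFP-positive cells in 5 of 6 pairs, whereas the ratios to Bak1, Bid and Bcl2l1 were in 6 of 6, counting the level pair of Bak1. Since the members were picked for their directions, these ratios are a description. They follow from the levels already given for each gene and are no separate evidence.

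**Figure D4:**
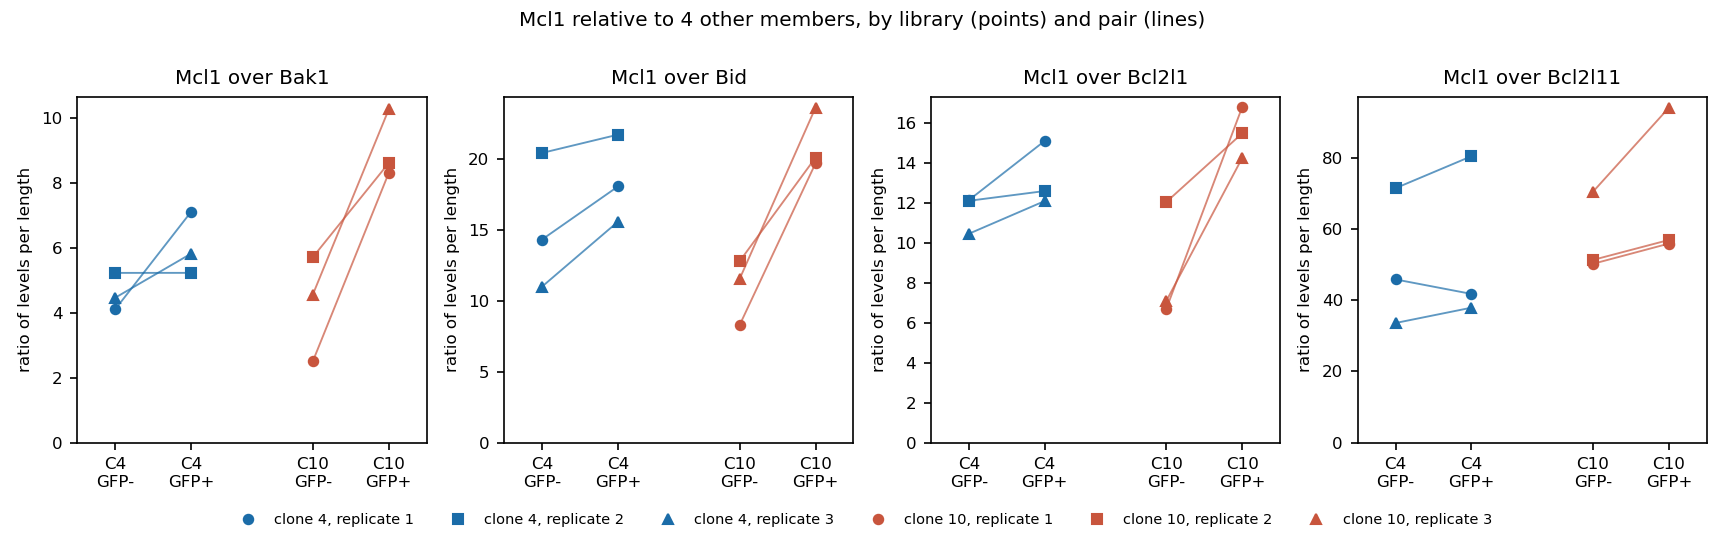
Level of Mcl1 per kilobase divided by that of Bak1, Bid, Bcl2l1 and Bcl2l11 in the same library (vertical linear axes from 0), with a line for each pair, blue for clone 4 (C4) and red for clone 10 (C10). In clone 10 the GFP-positive libraries lie above all GFP-negative libraries for Bak1 (8.31 to 10.3 against 2.50 to 5.71), Bid and Bcl2l1, and overlap with them for Bcl2l11. These members were picked after their values had been seen.

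The genes whose log2 level followed that of Mcl1 most closely over the 12 libraries were Arsk (Pearson's r = 0.949), which encodes a lysosomal sulfatase, Fbxo34 (0.937), an F-box gene, and Sgms1 (0.931), which encodes a sphingomyelin synthase. They led 12417 genes whose mean log2 CPM was 1 or more. For the 6 within-pair differences the correlations were 0.887, 0.838 and 0.828. Over both clones within pairs, Arsk rose by a log2 change of 1.65 (edgeR adjusted p = 0.00806), Fbxo34 by 0.58 (0.0188) and Sgms1 by 1.13 (0.0253). Across all libraries the edgeR adjusted p was 0.0614, 0.205 and 0.113 in the same order. The calls of Fbxo34 and Sgms1 ended without some single pairs (up to 0.107 without clone 4 replicate 1 for Fbxo34 and 0.142 without it for Sgms1). By clone, over all fits within pairs, the change in clone 10 was 2.35 to 2.84 for Arsk, 0.71 to 0.97 for Fbxo34 and 1.41 to 2.3 for Sgms1. In clone 4 it was 0.19 to 1.1, 0.23 to 0.38 and 0.25 to 0.52, and no fit called any of them. The points share libraries, pairs and the gate, so the correlations are a description. These genes were picked for following Mcl1 in the same libraries, so their gate changes are no separate evidence.

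The other genes of the pathway were taken from lists of 48 genes, of which 44 were tested. Within pairs, 4.22% of all genes were called in clone 10 and 3.36% over both clones. Of the 44 genes, Pmaip1 was the one called in a gate comparison, higher, and none was called lower there. It encodes NOXA, a BH3-only protein that binds MCL1. In clone 10 it stood at 231, 157 and 100 normalized CPM in GFP-negative and 379, 330 and 236 in GFP-positive cells, and in clone 4 at 451, 126 and 144 in GFP-negative and 481, 132 and 228 in GFP-positive cells. The groups did not overlap in clone 10, where the lowest GFP-positive library (236) was just above the highest GFP-negative one (231), and they overlapped in clone 4. Such an upward separation was seen in 9.38% of all genes in clone 10. Replicate 1 was the highest at either gate in both clones. The GFP-positive library was higher in each of the 6 pairs, as it was for 8.71% of all genes. Within pairs Pmaip1 rose by a log2 change of 1.01 in clone 10 (SE 0.16, edgeR adjusted p = 0.0126) and by 0.64 over both clones (SE 0.11, edgeR adjusted p = 0.0216). Across all libraries the value over both clones was 0.59 (SE 0.39, edgeR adjusted p = 0.764). The call in clone 10 was lost without clone 10 replicates 2 or 3 (0.0575 and 0.111), and that over both clones without clone 4 replicates 1 or 3 (0.0822 and 0.0953) or clone 10 replicates 2 or 3 (0.0552 and 0.0941).

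None of the other lists had a gene called in a gate comparison. Of each, genes with the smallest p over both clones within pairs are given by their log2 change, with the edgeR adjusted p in brackets. Among the other anti-apoptotic genes Bcl2l2 was at -0.22 (0.188) and Bcl2l10 at 0.14 (0.825). Of the other effectors, Bok was at -0.41 (0.107) and Bax, the partner of Bak1, at -0.32 (0.237). Of 8 genes of the apoptosome and caspases, Apaf1, the scaffold, was at 0.40 (0.105). Of 7 caspase inhibitors and their antagonists, Xiap was at 0.41 (0.159) and Birc2 at 0.08 (0.528). Of 7 death receptors and adaptors, Tradd was at -0.36 (0.132) and Tnfrsf10b at 0.35 (0.137). Of 10 regulators of stability and transcription of the family, Fbxw7, a ubiquitin ligase subunit that targets MCL1, was at 0.36 (0.127) and Foxo3, a transcription factor known to act on Bcl2l11, at 0.31 (0.138). Between the clones, edgeR called 1 of the 44 genes, Tradd, an adaptor of death receptors, and only with the replicate number as a block. Its level in GFP-positive cells was lower in clone 10 by a log2 difference of -1.16 (SE 0.25, edgeR adjusted p = 0.0332, and 0.215 without the block). With the block, 3.92% of all genes were called in that comparison. The median over the 44 genes was -0.01 over both clones and -0.07 in clone 10, beside 0.00 and -0.01 for all genes tested.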

How the data were processed

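The authors deposited whole-number read counts per gene for 12 libraries, not normalized, with a comparison table per clone that holds, per the file headers, log2 fold changes and p-values. STAR 2.3.0e, HTSeq 0.6.0, DESeq2, DESeq and mm10 are listed by the submitters' processing notes. Neither annotation release nor strand setting is given in the sources used here. Symbols and coordinates came from the deposited tables by Ensembl ID, exon lengths from GENCODE (for 96.0% of genes).

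The deposited counts entered a robust quasi-likelihood F test (edgeR 4.0.16, R 4.3.3, TMM scaling), with a filter worth 10 counts in at least 3 libraries and 15 in total, in a single fit of 4 groups (8 residual degrees of freedom). Benjamini-Hochberg adjustment ran over every gene in the fit, with calls made below an adjusted p of 0.05. The fit within pairs added a term for clone and replicate number (4 residual degrees of freedom). Deviations from group means correlated at 0.548 to 0.822 in the 6 same-numbered pairs of a clone and at -0.541 to -0.228 between other numbers. Deviations from a group mean sum to 0, so the second range largely follows from the first and is no separate evidence. Between the clones, libraries correlated at -0.425 to 0.588 with the same number and at -0.448 to 0.683 with another. Pairing by number is therefore an assumption of the fit. The coefficient of variation was 0.389 across all libraries and 0.175 within pairs. DESeq2 1.42.0, limma-voom 3.58.1, other filters, size factors, passage as a covariate and removal of each library or pair were the alternatives. The procedure was tested on simulated data. These had the pairing built in and planted changes larger than that of Mcl1 in clone 10. The simulation therefore checks neither the pairing nor a change of that size.

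Levels are CPM by the effective library size, and where lengths are compared, that value per kilobase of merged exons. All members were named, with pathway genes called in a gate comparison or, for a list with none, the 2 with the smallest p, and the 3 genes correlating best with a called member. A result for 1 gene that this rule names is not reported here. The members and lists were chosen with earlier results of these data known.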

Additional observations from a re-analysis of the deposited data

How the results depend on the processing

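With the replicate block, the count of members called in clone 10 went from 0 to 1, and it was also 1 with the block without clone 10 replicate 1 and with the block under limma-voom, no filter or total counts only, and 3 under DESeq2 (Mcl1, Bak1 and Bid). For the mean of both clones it was 0 with the block and 1 with the block without clone 10 replicate 1, under DESeq2 and under limma-voom, Mcl1 in each case. Leaving out single libraries or pairs gave counts of 0 to 1 in these comparisons. The count of members was 0 in every fit run of clone 4, of the difference between the clones' changes, and of one clone minus the other. The block with other size factors or with total counts only was chosen after seeing the data. With total counts only, the median of all genes in clone 10 was 0.11, and Mcl1 at 0.66 is read against that shift.

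Mcl1 was above 0 and Bak1 below 0 under every alternative in each clone. The members whose sign turned in a gate comparison were called in that comparison by no fit run. Without single libraries or pairs, the change in clone 4 was -0.29 to 0.72 for Bcl2, -0.07 to 0.04 for Bcl2l1, -0.09 to 0.48 for Bcl2l11, -0.35 to 0.04 for Bid, -0.25 to 0.19 for Bad, -0.74 to 0.27 for Bik, -0.14 to 0.25 for Bmf and -1.35 to 1.19 for Hrk. In clone 10 it was -0.81 to 0.01 for Bcl2 and -0.64 to 0.20 for Bad, and over both clones -0.37 to 0.16 for Bcl2, -0.35 to 0.07 for Bad, -0.14 to 0.37 for Bik and -0.84 to 0.43 for Hrk. In clone 4, passage as a covariate gave -0.03 for Bcl2 and 0.01 for Bad, and no filter gave 0.01 for Bcl2l1 with or without the block. With the block and without clone 4 replicate 1 it was -0.09 for Bcl2, 0.01 for Bcl2l1, -0.02 for Bcl2l11, 0.03 for Bad, 0.09 for Bik, -0.01 for Bmf and 0.06 for Hrk. Bad was also at 0.03 without clone 4 replicate 3 and, in clone 10, at 0.06 without clone 10 replicate 1. With the block, Bcl2l1 was at 0.01 in clone 4 without clone 10 replicate 2, and Bcl2 at 0.01 in clone 10 without clone 10 replicate 3. Over both clones, with the block, Bcl2 was at 0.07 without replicate 3 of either clone, Bad at 0.01 without clone 10 replicate 1 and Bik at -0.03 without clone 4 replicate 2. Bik was at 0.00 over both clones and, just below 0, also at 0.00 under DESeq2 and with DESeq2-style size factors, as was Bcl2l1 in clone 4 with the block without clone 4 replicate 3, just above 0. The cause was not tested.

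Over all genes, the 641 calls of clone 10 within pairs became 1582 under DESeq2, 132 without clone 10 replicate 3, 319 without clone 4 replicate 3 and 266 with clone 10 libraries only. For Bcl2, with 2 to 44 reads per library, depth limits the precision.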
